A study of Mus musculus with 8 samples.

Results

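Poly(A) RNA that stayed bound to poly(U) agarose through a warm wash was compared with all poly(A) RNA from the same kind of cells, primary mouse hippocampal neurons that carried a scrambled (control) hairpin. The comparison used 4 of the 8 libraries of the series, 2 of long-tail RNA and 2 of total poly(A) RNA, and 6934 of the 23845 entries of the gene table, those with a mean of at least 20 TPM over these libraries. TPM is a gene's share of a library after correction for transcript length, scaled to the same sum in every library. Neurons came from embryos at embryonic day 19, received lentivirus on days 13 to 15 of culture and were collected on days 17 to 19. The 2 scrambled groups therefore share the virus and the scrambled hairpin, and per the labels they differ only in the fraction of RNA that was sequenced. Total poly(A) RNA was eluted from the agarose at 75 °C. For the long-tail fraction, an added wash at 50 °C, which per the labels takes away RNA with tails under 50 nucleotides, preceded that elution. The other 4 libraries, used below only to see whether the same difference appeared in other libraries, came from neurons given a hairpin against CNOT7, 2 of each fraction. The sources used here do not give the strain, sex or number of embryos or cultures behind a library, so the spread between the 2 libraries of a group may be technical.

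Most mRNAs end in a poly(A) tail that is added in the nucleus and shortened in the cytoplasm by deadenylases such as the CCR4-NOT complex, of which CNOT7 is a catalytic subunit. Tails bind poly(A)-binding protein and take part in translation and in mRNA stability, and in neurons some synaptic mRNAs have tails that are lengthened or shortened with activity. Poly(U) binds runs of adenosine wherever they lie in an RNA, and longer runs hold to it at higher temperature.

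The values are whole-number TPM, and the read depth behind them is unknown. A TPM difference between fractions is a difference in share and not a tail length. Markers of excitatory neurons summed to 4409 and 3352 TPM in the total libraries and to 3475 and 3131 TPM in the long-tail libraries. Astrocyte markers summed to more, between 17312 and 21583 TPM, so the cultures held RNA of glia beside that of neurons. Oligodendrocyte lineage markers summed to between 1870 and 2331 TPM with 1 of 22 at 0, endothelial and mural markers to between 393 and 696 TPM with 4 of 19 at 0, and microglia markers to between 28 and 53 TPM with 6 of 15 at 0. The summed levels of these lists, of inhibitory neuron markers (1835 to 2190 TPM) and of proliferation genes (260 to 337 TPM) overlapped between the fractions. In such bulk libraries fewer cells of a type and less RNA per cell cannot be told apart. The entry for the ribosomal RNA precursor, Rn45s, made up 6.86% and 7.8% of the TPM of the total libraries and 17.2% and 7.46% of that of long-tail libraries 1 and 2, so long-tail library 1 stood apart. Cnot7, the gene targeted in the other 4 libraries, was at 42 and 36 TPM in total and at 28 and 31 TPM in long-tail RNA of scrambled neurons.

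Which RNAs held a larger or smaller share of the long-tail fraction was first asked gene by gene. The main pattern in the difference between the fractions was a gradient with transcript size. Short mRNAs, among them those of ribosomal proteins and of the respiratory chain, held more of the long-tail libraries. Long mRNAs, among them those of synaptic receptors and ion channels, held less. The brain RNA Bc1 stood far outside this gradient, at a mean of 1240.5 ± 662.6 TPM (SD, n = 2) in total and 108 ± 36.8 TPM (SD, n = 2) in long-tail RNA. No single gene passed the test of the 2 group means. Differences are given as long-tail minus total on the log2(TPM + 1) scale after each library's median deviation was subtracted. Before that subtraction the median shift between the fractions was -0.197. Of the 6934 genes, 0 (0%) were called higher and 0 (0%) were called lower at an adjusted p under 0.05 by limma, and the smallest adjusted p was 0.274. At an unadjusted limma p under 0.05, 688 genes (9.92%) were higher and 503 (7.25%) were lower in long-tail RNA, where 347 in all are expected by chance. After centring, both long-tail libraries lay above both total libraries for 1809 genes (26.1%) and below both for 1806 genes (26%). Without centring, these counts were 495 (7.14%) and 3111 (44.9%), so the balance of higher and lower genes follows from the centring. With 1 library left out the count called was no longer 0: it was 23 higher and 14 lower without total library 1, 94 and 16 without total library 2, 14 and 12 without long-tail library 1, and 29 and 15 without long-tail library 2. These fits leave 1 arm with a single library, whose spread is assumed to be that of the other arm.

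Differences were small for most genes. The median size was 0.194, the median standard error 0.14, and the median half-width of the 95% interval 0.354. Only 6 genes differed by more than 1, of which 2 were higher and 4 lower in long-tail RNA. Across genes, levels in the 2 total libraries correlated at r = 0.97 and those in the 2 long-tail libraries at r = 0.979. Total and long-tail libraries correlated at r = 0.98 and 0.974 with the same number, and at 0.959 and 0.956 with different numbers. These are correlations across 6934 genes, which are not independent replicates. The largest axis of variation among the 4 libraries (principal component 1, 49.3%) did not separate the fractions. It held total 1 and long-tail 1 at 6.68 and 14.7, and total 2 and long-tail 2 at -17.3 and -4.14. Principal component 2 (44.5%) separated the fractions.

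The RNAs furthest from the rest include several that are not made as ordinary polyadenylated mRNAs. Bc1 is a short RNA polymerase III transcript of neurons that is carried into dendrites and represses translation. Rmrp and Rpph1 are the RNA components of the ribonucleases MRP and P, and Snord22 is a small nucleolar RNA that was chosen after its values were seen. Their annotated sequences are shown because they differ in how much adenosine they hold within the RNA itself. Capitals mark the 40 bases of each with the most A. Those of Bc1, Rmrp and Snord22 are from the GENCODE M21 transcripts on GRCm38, written 5′ to 3′ with T for U.
Bc1: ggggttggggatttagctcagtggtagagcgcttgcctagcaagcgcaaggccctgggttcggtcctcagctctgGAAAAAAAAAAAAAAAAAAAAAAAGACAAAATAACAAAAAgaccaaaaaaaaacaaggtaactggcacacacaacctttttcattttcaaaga
Rmrp: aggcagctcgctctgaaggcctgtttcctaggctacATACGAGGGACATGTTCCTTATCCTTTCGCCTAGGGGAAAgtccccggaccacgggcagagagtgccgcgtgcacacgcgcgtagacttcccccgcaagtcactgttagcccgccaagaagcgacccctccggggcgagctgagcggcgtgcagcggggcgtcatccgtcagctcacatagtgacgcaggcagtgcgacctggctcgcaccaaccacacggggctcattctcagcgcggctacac
Snord22: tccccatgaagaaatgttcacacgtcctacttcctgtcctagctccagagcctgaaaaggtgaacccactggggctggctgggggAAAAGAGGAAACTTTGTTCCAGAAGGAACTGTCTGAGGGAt
The Bc1 transcript (chr7:144914470-144914637, + strand, 168 nt) has 35 A in its marked window, or 87.5%, with a longest run of 23 A. The marked windows of the others held 25% A in Rmrp (chr4:43492783-43493063, - strand) and 37.5% in Snord22 (chr19:8725866-8725991, + strand). Whether the internal run of A bears on the values of Bc1 was not tested.

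Bc1 was at 1709 and 772 TPM in the total libraries and at 134 and 82 TPM in the long-tail libraries. Both long-tail values lay far below both total values, although the total libraries also lay apart from each other. The difference was -3.24 ± 0.445 (SE; limma adjusted p = 0.274), the lowest of the 6934 genes. Rmrp was at 584 and 377 TPM in total and at 276 and 216 TPM in long-tail RNA, without overlap, a difference of -0.74 ± 0.266 (SE). For comparison, Rpph1 (chr14:50807449-50807767, - strand), with 27.5% A in its most A-rich 40 bases, was at 520 and 371 TPM in total and 388 and 419 TPM in long-tail RNA. It overlapped between the fractions, with a difference of 0.07 ± 0.179 (SE) that was -0.12 without centring. Snord22 was at 38 and 24 TPM in total and at 12 and 7 TPM in long-tail RNA, lower in both long-tail libraries. The small RNAs therefore did not all share one direction: Rmrp, Snord22 and Bc1 were lower without overlap, and Rpph1 was not.

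Cdr1 (chrX:61184005-61185558, - strand) had the next largest difference below 0 after Bc1. Its values were 263 and 218 TPM in the total libraries and 87 and 47 TPM in the long-tail libraries, which did not overlap. The difference was -1.69 ± 0.344 (SE; limma adjusted p = 0.274). The antisense strand of this gene gives rise to a circular RNA abundant in brain, and since the counting is not stated to use strand, reads of the gene and of its antisense partner cannot be told apart. Gm20594, a predicted gene chosen after its values were seen, was at 2561 and 10183 TPM in total and at 1712 and 1356 TPM in long-tail RNA. Its 2 total libraries differed more from each other than total library 1 differed from either long-tail library.

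Of the 36 long non-coding RNAs of a fixed list, 19 were tested, of which 7 lay above 0 and 12 below, with a median of -0.06, against 49.6% of all genes above 0, 50.4% below and a median of -0.003 over all genes. Xist, which coats the inactive X chromosome, was at 58 and 77 TPM in total and at 31 and 36 TPM in long-tail RNA, a difference of -0.78 ± 0.173 (SE). Snhg3, a host gene of small nucleolar RNAs, was at 29 and 23 TPM in total and at 46 and 40 TPM in long-tail RNA, a difference of 0.91 ± 0.182 (SE). Malat1, a nuclear RNA whose end is a triple helix in place of a tail, was at 525 and 1096 TPM in total and at 602 and 523 TPM in long-tail RNA, so its fractions overlapped. Rn45s was at 68551 and 77992 TPM in total and at 172203 and 74616 TPM in long-tail RNA. Only long-tail library 1 was high, and the difference of 0.83 ± 0.443 (SE) had a limma p of 0.116. Lars2, chosen after its values were seen, was likewise highest in long-tail library 1, at 10507 TPM against 6075 TPM in long-tail library 2 and 3667 and 6302 TPM in the total libraries.

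The 10 genes with the smallest p in each direction had limma p values from 0.000397 to 0.00208 among those higher in long-tail RNA and from 0.000557 to 0.0028 among those lower, and all had an adjusted p of 0.274. On the lower side, the annotated transcripts were 5260 to 12200 nt long apart from those of Bc1 and Psd3. Lrrc8b, a subunit of a volume-regulated anion channel, was at 55 and 48 TPM in total and at 23 and 27 TPM in long-tail RNA, a difference of -0.82 ± 0.125 (SE). Usp34, a large deubiquitinase with an annotated transcript of 12200 nt, was at 31 and 35 TPM in total and 16 and 17 TPM in long-tail RNA, a difference of -0.76 ± 0.138 (SE). Cds2, an enzyme of phosphoinositide synthesis, was at 152 and 150 TPM in total and at 82 and 84 TPM in long-tail RNA. Choice by the smallest p favours close libraries and separate fractions, and 26% of all genes were lower without overlap after centring. In Lrrc8b, Usp34 and Cds2 the 2 libraries of a fraction lay close together and the fractions did not overlap. The same held for the integrin subunit Itgav (52 and 54 against 27 and 32 TPM), the sodium-calcium exchanger Slc24a2 (73 and 77 against 40 and 45 TPM) and the orphan receptor Gpr158 (55 and 57 against 30 and 34 TPM). Epm2aip1 was at 49 and 53 TPM in total against 21 and 29 TPM in long-tail RNA, and the zinc finger gene Plagl1 at 46 and 46 against 21 and 28 TPM. Psd3, an exchange factor for ARF6 found at synapses, was at 43 and 47 TPM in total and at 23 and 26 TPM in long-tail RNA. Its annotated transcript of 1739 nt, which need not be the form these neurons express, made it an exception in length among the lower mRNAs.

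On the higher side stood short mRNAs, among them those of the mitochondrial proteins Ndufc1, Mrpl41 and Sdhaf1. Ndufc1, a subunit of respiratory complex I, was at 291 and 281 TPM in total and at 399 and 432 TPM in long-tail RNA, a difference of 0.73 ± 0.112 (SE). 1810043H04Rik was at 26 and 27 TPM in total and 44 and 46 TPM in long-tail RNA, a difference of 0.94 ± 0.12 (SE). 1810022K09Rik was at 169 and 177 TPM in total and 257 and 269 TPM in long-tail RNA. Both long-tail libraries lay above both total libraries for each of these, which choice by the smallest p favours. After centring this held for 26.1% of all genes. Mrpl41, a protein of the mitochondrial ribosome, was at 38 and 36 against 50 and 52 TPM, and Sdhaf1, an assembly factor of succinate dehydrogenase, at 35 and 32 against 44 and 50 TPM. Rpl22l1, a paralog of the ribosomal protein Rpl22, was at 36 and 37 TPM in total and 49 and 60 TPM in long-tail RNA. The DNA repair factor Xpa was at 22 and 20 against 28 and 34 TPM, the trafficking protein Trappc2l at 89 and 85 against 117 and 121 TPM, Rps19bp1 at 32 and 33 against 41 and 50 TPM, and Smim18 at 24 and 26 against 36 and 44 TPM. The annotated transcripts of the 10 higher genes were 435 to 2490 nt long.

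**Figure D1:**
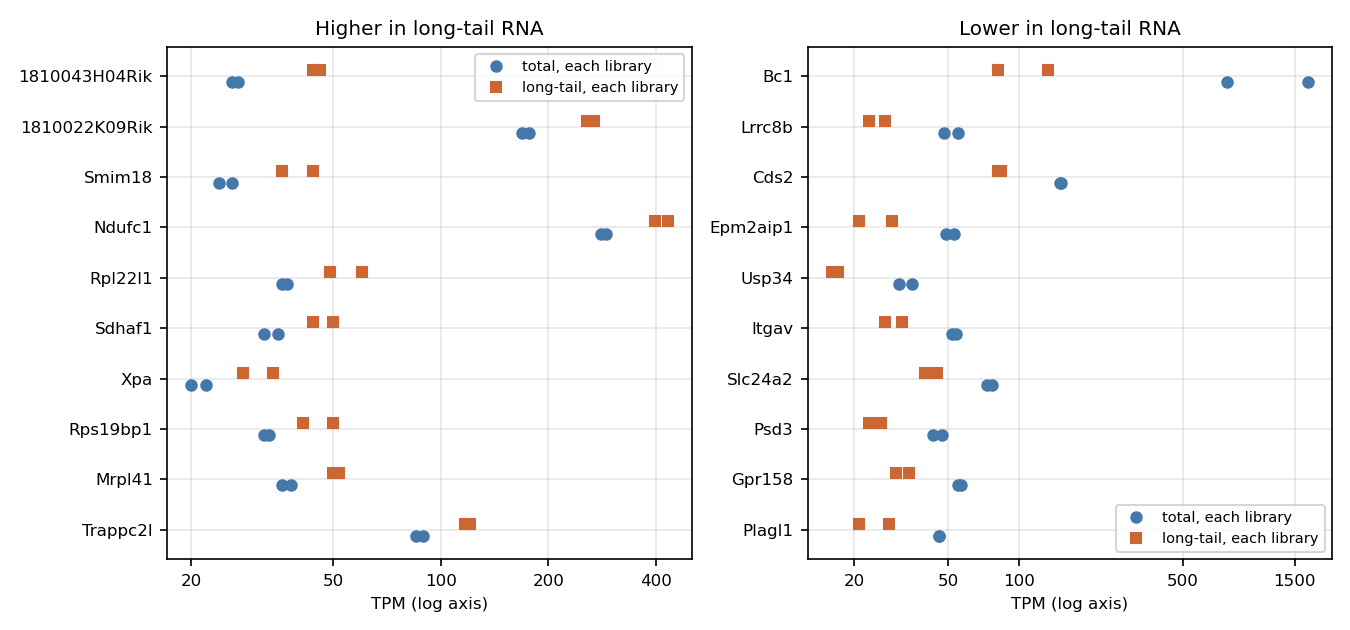
TPM of the 10 genes with the smallest p in each direction, on a log axis, with 1 point for each scrambled library (circles for total, squares for long-tail RNA). The long-tail points lie right of the total points for all higher genes and left of them for all lower genes, which choice by the smallest p favours. Bc1 is the furthest apart, at 134 and 82 against 1709 and 772 TPM.

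Transcript length was then set against the difference for the 6901 tested genes (99.5%) with 1 matched transcript in GENCODE M21, which need not be the form these neurons express. Spearman's correlation across genes was -0.816, given as a description of these libraries. Genes were then put into 10 bins of near equal size by length. In the bin with the shortest transcripts, 119 to 1120 nt, the median difference was 0.422 and 97.4% of the genes lay above 0. In the longest bin, 6330 to 27908 nt, the median was -0.337 and 4.49% lay above 0. The middle of the range was near 0, with a median of 0.00364 for transcripts of 2424 to 2876 nt. Of the 691 genes of the shortest bin, 562 were higher in both long-tail libraries than in both total libraries and 8 were lower, and of the 690 genes of the longest bin, 492 were lower and 7 higher. These counts were taken after centring, where 26.1% of all tested genes were higher and 26% lower in this way.

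The gradient was present in each library rather than in 1 of them. In the shortest bin, the median level relative to each gene's mean over the 4 libraries was -0.222 and -0.185 in the total libraries and 0.199 and 0.217 in the long-tail libraries. For the longest bin it was 0.104 and 0.23 in the total libraries and -0.115 and -0.217 in the long-tail libraries. Any single long-tail library minus any single total library gave a Spearman correlation with length between -0.809 and -0.558. The same measure between libraries of 1 fraction was -0.107 for total library 1 minus 2 and 0.054 for long-tail library 1 minus 2. Long-tail library 1, with its high share of Rn45s, gave -0.727 against total library 1 and -0.611 against total library 2. Long-tail library 2, with a share of Rn45s near that of the total libraries, gave -0.558 and -0.809.

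**Figure D2:**
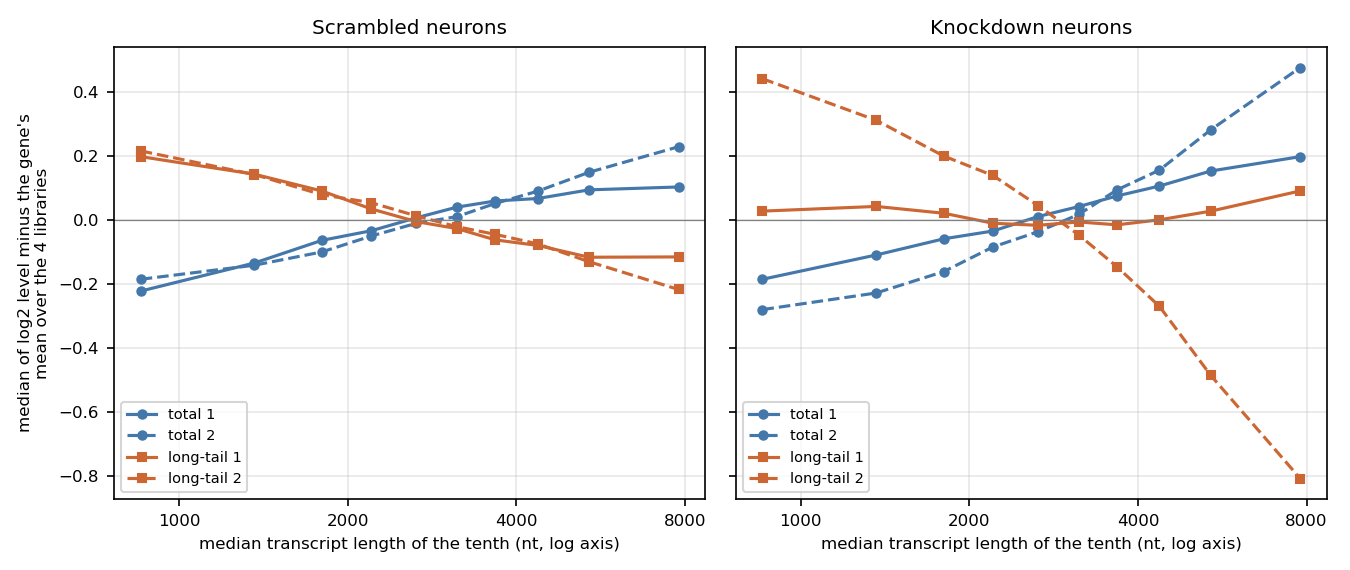
Median log2 level relative to the gene's mean, by bin of transcript length (median length in nt, log axis), with 1 line for each library, scrambled neurons on the left and knockdown neurons on the right. In scrambled neurons the total libraries start at -0.222 and -0.185 in the shortest bin and the long-tail libraries at 0.199 and 0.217, and the lines cross at intermediate lengths.

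Other measures of the transcript were set against the difference in the same way. The length of the longest annotated transcript of a gene gave a Spearman correlation of -0.827, slightly closer than that of the matched transcript, and the length of the shortest gave -0.664. The 2628 genes with a single transcript gave -0.822. Among 6831 protein-coding genes, it was -0.713 for the coding length and -0.531 for the length of the 3′ UTR, and over 6901 genes 0.141 for GC content and 0.232 for the mean level. Both parts of the mRNA went with the difference when the other was held within 1 of 3 classes of near equal size. Genes with a coding length of 75 to 915 nt had a median of 0.383 where the 3′ UTR was in the shortest class, 0.189 in the middle class and -0.00367 in the longest class. Genes with a coding length above 1692 nt had medians of -0.106, -0.174 and -0.278 across the same classes.

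**Figure D3:**
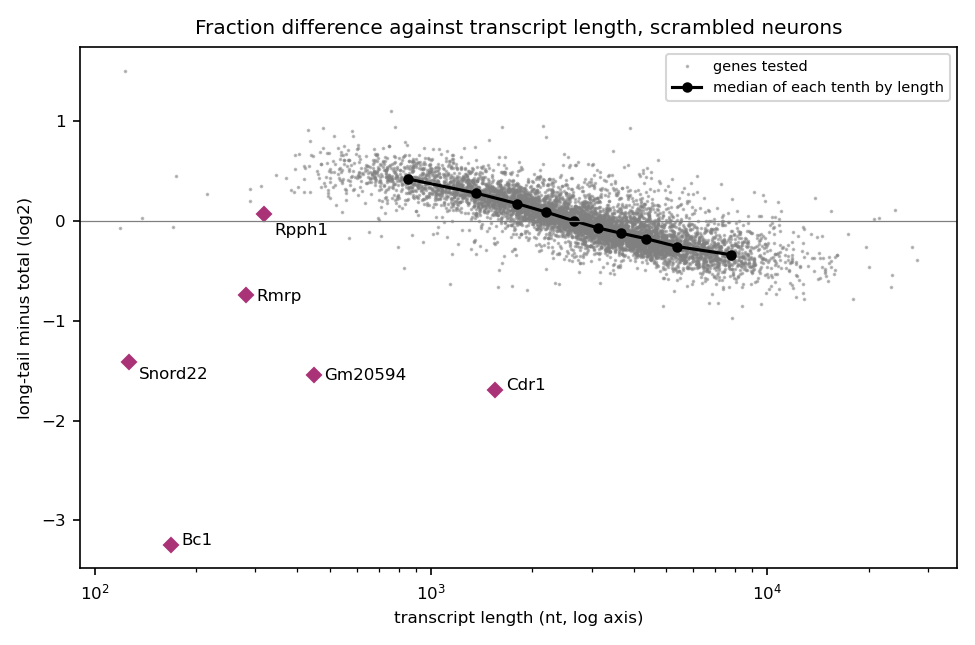
Long-tail minus total difference (log2) of each tested gene against its annotated transcript length (nt, log axis), with the median of each bin joined by a line. Diamonds mark Bc1, Cdr1, Rmrp, Rpph1, Snord22 and Gm20594. The line runs from 0.422 in the shortest bin to -0.337 in the longest, and Bc1, at 168 nt and -3.24, lies far below it.

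Lists of short mRNAs lay above 0. All 82 cytosolic ribosomal protein genes lay above 0, with a median of 0.34 and a median transcript length of 869 nt, and 34 of them had an unadjusted p under 0.05 (over all genes, 9.92% did in this direction). Rps21 was at 762 and 825 TPM in total and at 923 and 1065 TPM in long-tail RNA, and Rpl29 at 704 and 741 against 824 and 936 TPM, both without overlap. Of 77 mitochondrial ribosomal proteins 71 were tested, and all 71 lay above 0 with a median of 0.40. Mrpl20 was at 149 and 154 TPM in total and at 186 and 209 TPM in long-tail RNA. Of the 78 subunits of the respiratory chain and ATP synthase encoded in the nucleus, 76 lay above 0 and 2 below, with a median of 0.41. Cox7c, a subunit of cytochrome c oxidase, was at 690 and 748 TPM in total and at 873 and 1127 TPM in long-tail RNA, and Ndufa4 at 875 and 967 against 1113 and 1317 TPM. Without centring the medians were 0.14 for cytosolic ribosomal proteins, 0.21 for mitochondrial ones and 0.22 for the respiratory chain. No member of these lists was called.

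Proteasome subunits were also mostly higher, 30 of 32 with a median of 0.25, which was 0.05 without centring. Psmb4, a subunit of the catalytic core, was at 209 and 201 TPM in total and 229 and 256 TPM in long-tail RNA. Translation factors had 33 of 50 members above 0 and a median of 0.10, which was -0.09 without centring. Initiation factor Eif1, with a short mRNA, was at 432 and 443 against 477 and 499 TPM, and the scaffold Eif4g1, with a long one, at 187 and 202 against 130 and 133 TPM. Glycolysis and TCA cycle enzymes had 24 of 32 members above 0 and a median of 0.11, which was also -0.09 without centring. With centring the share above 0 was 49.6% over all genes.

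Lists of synaptic and excitability genes lay on the other side. Of 25 glutamate receptor genes 12 were tested, with 11 below 0 and a median of -0.29. Gria2, the AMPA receptor subunit that limits calcium entry, was at 163 and 178 TPM in total and at 104 and 128 TPM in long-tail RNA, a difference of -0.36 ± 0.126 (SE). Gria3, another AMPA receptor subunit, was at 53 and 60 against 37 and 43 TPM, and the metabotropic receptor Grm5 at 41 and 42 against 30 and 28 TPM. Of 14 GABA receptor genes 10 were tested and all 10 lay below 0, with a median of -0.29. Gabra2, a subunit of the GABA-A receptor, was at 133 and 134 TPM in total and at 81 and 86 TPM in long-tail RNA, a difference of -0.47 ± 0.113 (SE). The GABA-B receptor subunit Gabbr1 was at 204 and 187 against 129 and 139 TPM, and its partner Gabbr2 at 178 and 166 against 114 and 124 TPM. The long-tail values of all of these named receptors lay below their total values.

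Voltage-gated channels had 27 of 33 members below 0 and a median of -0.23, against 50.4% below 0 over all genes. Without long-tail library 2 that median was -0.0884. The sodium channel Scn2a1 was at 74 and 84 TPM in total and 48 and 52 TPM in long-tail RNA, and the potassium channel Kcna2 at 34 and 37 against 23 and 20 TPM. Presynaptic release proteins had 35 of 46 below 0 and a median of -0.19. Rims1, an active zone scaffold, was at 69 and 79 TPM in total and at 43 and 47 TPM in long-tail RNA, and the synaptotagmin Syt11 at 599 and 546 against 365 and 387 TPM. Of 54 tested dendritically localised and plasticity mRNAs, 44 lay below 0, with a median of -0.20, which was -0.10 without long-tail library 2. Without centring the medians of the receptor, channel, presynaptic and dendritic lists lay further below 0, between -0.49 and -0.39. The calcium-stimulated adenylyl cyclase Adcy1 was at 81 and 80 TPM in total and 46 and 49 TPM in long-tail RNA, and the calcineurin subunit Ppp3ca at 251 and 217 against 147 and 144 TPM. Camk2a, the dendritic kinase mRNA, was at 1597 and 1307 TPM in total and 1149 and 993 TPM in long-tail RNA. Its difference of -0.24 ± 0.18 (SE) came with libraries that overlapped after centring.

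Lists of RNA regulators lay near 0. The CCR4-NOT list, with its TOB and BTG partners, had 7 of 13 above 0 and a median of 0.02, which was -0.18 without centring. The scaffold subunit Cnot1, with a long mRNA, was at 47 and 53 TPM in total and 30 and 33 TPM in long-tail RNA. Cnot7 had a difference of -0.19 ± 0.128 (SE) and its close relative Cnot8 was at 63 and 64 against 55 and 64 TPM. The list of tail polymerases, tail-binding proteins and CPEB family members had 18 of 26 below 0 and a median of -0.09. Cpeb4, a protein that regulates cytoplasmic polyadenylation, was at 33 and 39 against 22 and 26 TPM. Decapping and decay factors had 19 of 33 below 0 and a median of -0.08. The small ring protein Lsm4 was at 58 and 63 TPM in total and 70 and 87 TPM in long-tail RNA. Splicing factors had 25 of 47 below 0 and a median of -0.01.

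Among the remaining lists, neuropeptides and granins had 12 of 15 members above 0 and a median of 0.20, which was 0.00068 without centring. Cck, the cholecystokinin precursor, was at 548 and 465 TPM in total and 635 and 747 TPM in long-tail RNA, and the somatostatin precursor Sst at 472 and 480 against 523 and 759 TPM. Tubulins, neurofilaments and microtubule-associated proteins had 24 of 37 above 0 and a median of 0.04, which was -0.16 without centring. The actin-binding peptide Tmsb10 was at 842 and 715 against 1052 and 1091 TPM. Activity-regulated immediate early genes had 17 of 27 above 0 and a median of 0.09, which was -0.10 without centring. Gadd45g, a stress and activity gene, was at 49 and 55 TPM in total and 64 and 82 TPM in long-tail RNA.

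Histone mRNAs of the replication-dependent kind, which normally end in a stem-loop and carry no tail, had entries for 60 of the listed genes, and 11 passed the filter on low values. Of these 11, 10 lay above 0, with a median of 0.36, which was 0.16 without centring. After centring, 6 of the 11 were higher without overlap, as were 26.1% of all genes. The exception below 0, Hist1h4d, was at 48 and 61 TPM in total and 41 and 22 TPM in long-tail RNA. Entries under the filter were not tested, so these values describe only the more abundant entries. Hist1h2bc was at 285 and 339 TPM in total and 353 and 524 TPM in long-tail RNA, and Hist3h2a at 113 and 115 against 118 and 138 TPM. Annotated 3′ UTRs were 742 nt long in Hist1h2bc, 1700 nt in Hist3h2a and 822 nt in Hist1h4d. They were 109 nt in Hist2h2aa2 and 93 nt in Hist1h4h, which also lay above 0. Whether the reads came from forms with a tail was not tested, so these values do not show how RNA without a tail behaved. Near-identical histone genes share reads, so single entries are uncertain. The replication-independent histones, which are polyadenylated, had all 9 tested members above 0 and a median of 0.27. H3f3a was at 568 and 555 TPM in total and 540 and 643 TPM in long-tail RNA, which overlapped before centring. Sterol synthesis genes had 9 of 23 above 0 and a median of -0.01. The 6 lists of cell type markers and proliferation genes with at least 3 tested members had medians between -0.07 and 0.10, and those above 0 turned to below 0 without centring. With 1 library left out, the medians of the long non-coding RNA, immediate early gene, CCR4-NOT, tail factor, splicing, tubulin and sterol lists ran through 0, while those of the ribosomal, respiratory chain, proteasome, receptor, channel, presynaptic and dendritic lists did not.

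**Figure D4:**
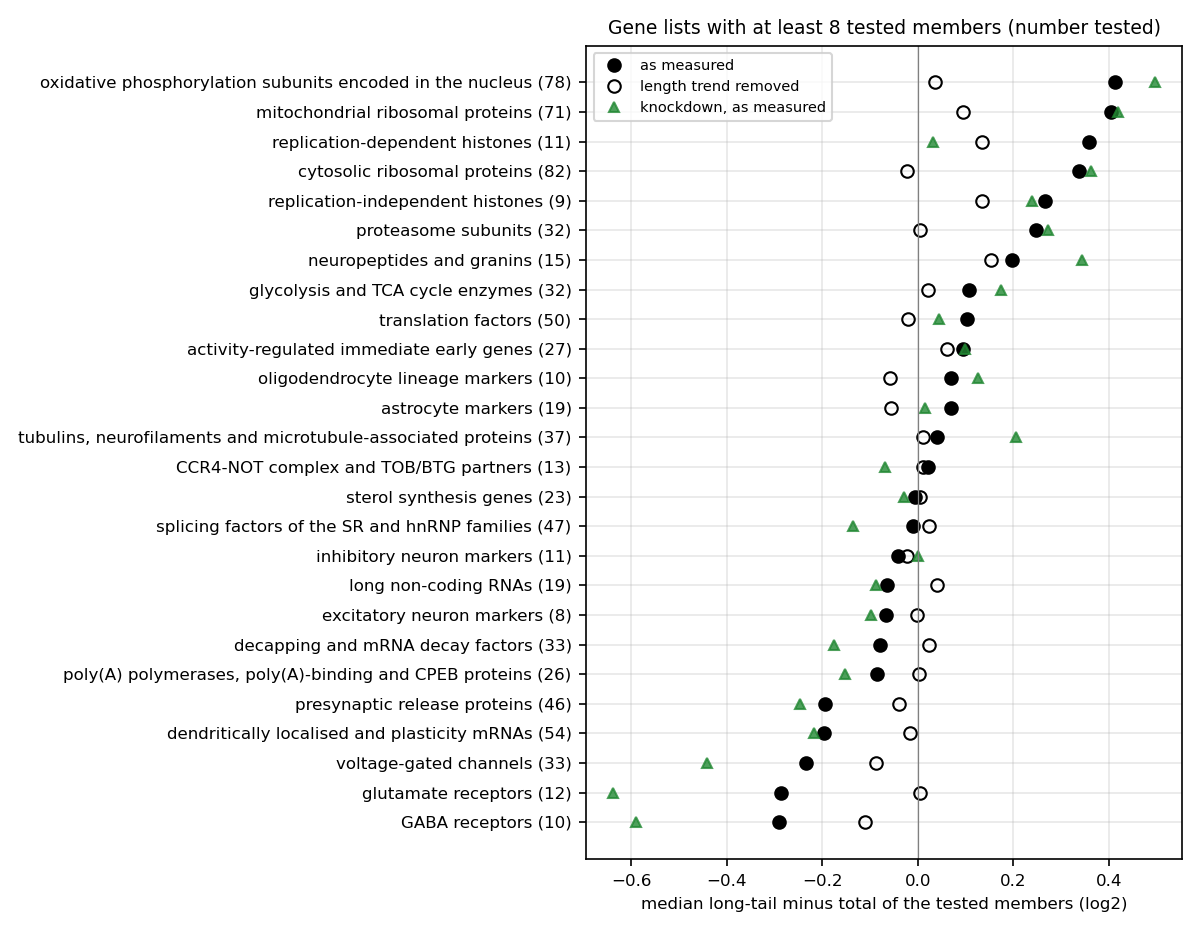
Median long-tail minus total difference (log2) of the tested members of each list with at least 8 of them (number in brackets), as measured in scrambled neurons (filled), after removal of the length trend (open) and in knockdown neurons (triangles). Respiratory chain subunits are at 0.41 and GABA receptors at -0.29 as measured, and at 0.04 and -0.11 after removal; medians of translation factors, glycolysis and TCA cycle enzymes, immediate early genes, CCR4-NOT members and tubulins turn to below 0 without centring.

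The differences were next recomputed after the smooth trend of each library's deviations on log2 transcript length was subtracted, an alternative chosen after the data were seen. This took out 61.8% of the variance of the difference across genes, and its median size went from 0.195 to 0.0829. Of 6901 genes, 0 were called by limma after removal, with a smallest adjusted p of 1, and 147 (2.13%) were higher and 98 (1.42%) lower at an unadjusted p under 0.05. Genes with a difference over 0.5 in size went from 395 to 101, of which 62 were higher and 39 lower. Of these 101, 95 had the same sign in the knockdown libraries, against 66.7% of all genes after removal. Both values rest on the same annotated length, so a wrong length moves both the same way. The 101 were also picked by size, so this agreement is not an independent check. Jakmip1, matched at 138 nt and chosen after its values were seen, went from 0.03 to -0.61 in scrambled neurons. In knockdown neurons it went from -0.02 to -0.76.

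Most list medians came close to 0 with the length trend removed. Cytosolic ribosomal proteins went to -0.02 with 31 of 82 above 0, the respiratory chain to 0.04 with 50 of 78, the proteasome to 0.005 with 17 of 32, and glutamate receptors to 0.005 with 6 of 12. Mitochondrial ribosomal proteins kept a median of 0.09 with 52 of 71 above 0, and their library medians were -0.0758 and -0.0419 in total and 0.0515 and 0.0462 in long-tail RNA. GABA receptors kept a median of -0.11 with 0 of 10 above 0, and their library medians were 0.0799 and 0.0858 in total and -0.0572 and -0.039 in long-tail RNA. The library medians of both these lists did not overlap between fractions. Replication-independent histones kept 0.13 with 7 of 9 above 0, at -0.0897 and -0.031 in total and 0.0495 and 0.135 in long-tail RNA. The respiratory chain, at -0.026 and -0.00775 against 0.0143 and 0.0234, did not overlap either. The same held for glycolysis and TCA cycle enzymes, at -0.0331 and -0.0149 against 0.0275 and 0.000644. All other lists with at least 8 tested members overlapped. With 2 libraries against 2, no exact permutation p can lie under 0.333, so separation of library medians does not by itself set a list apart. Neuropeptides had a median of 0.15 with 12 of 15 above 0, but their library medians of -0.0294 and -0.0828 in total and -0.0793 and 0.1 in long-tail RNA overlapped. Replication-dependent histones had 0.14 with 8 of 11 above 0, and their library medians, 0.0835 and -0.0929 in total and 0.0403 and -0.0557 in long-tail RNA, overlapped too. Their median in knockdown neurons after the same removal was -0.26. Over all genes the median was -0.006 with 3334 of 6901 above 0.

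Single genes moved in either direction once length was accounted for. Bc1 moved to -3.86 and Cdr1 to -1.92, since RNAs of their length were otherwise higher in long-tail RNA, and Rmrp moved to -1.32. Psd3 went from -0.66 to -0.84 ± 0.121 (SE). On the other side, Sdhaf1 moved little, from 0.67 to 0.63 ± 0.109 (SE). So did Mrps16, of the small mitochondrial ribosomal subunit, at 57 and 57 TPM in total and 67 and 79 TPM in long-tail RNA, whose difference went from 0.54 to 0.52 ± 0.108 (SE). Dpysl2, a protein of axon growth also known as CRMP2, was at 487 and 472 TPM in total and 595 and 582 TPM in long-tail RNA, and its difference went from 0.49 to 0.67 because its annotated transcript is 4520 nt long. Dnajc15, a mitochondrial co-chaperone chosen after its values were seen, was at 55 and 53 against 63 and 66 TPM, a length-adjusted difference of 0.72 ± 0.112 (SE). Its annotated transcript is 6193 nt long, of which 447 nt are coding. Over 6831 coding genes, the length-adjusted difference still had a Spearman correlation of -0.235 with coding length and 0.1 with 3′ UTR length. How far this or a wrong annotated length accounts for the values of single genes was not tested. Dpysl2 differed by 0.07 and Dnajc15 by 0.52 in knockdown neurons before the trend was removed.

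Sequence motifs near the 3′ end went with almost no difference. The poly(A) signal AATAAA was present on the sense strand in the last 50 bases of 65.7% of the tested coding transcripts (60% of all coding transcripts), and genes with it had a median of -0.01 against 0 without it. The signal variant ATTAAA, in 17.7% of them (16.5% of all), gave -0.01 against 0. In the last 200 bases, TTTTAT, the core of the CPEB-binding element, was in 21.2% (20.9% of all) and gave -0.04 against 0.01. The AU-rich pentamer ATTTA, in 33.1% (32.8% of all), also gave -0.04 against 0.01, and the Pumilio motif TGTANATA, in 7.8% (6.66% of all), gave -0.07 against 0. These motifs can overlap one another, and only exact letters on the annotated transcript were searched. With the length trend removed, medians with and without each motif lay between -0.01 and 0.

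Whether the same difference appeared in other libraries was asked in the CNOT7 knockdown neurons, whose 4 libraries are not shared with the scrambled comparison. Across the 6934 genes, the knockdown and scrambled differences correlated at r = 0.869 and had the same sign for 86.4% of genes. All 10 of the higher and all 10 of the lower genes with the smallest p kept their direction, and the knockdown libraries did not overlap in that direction for 8 and 10 of them. Over all genes the knockdown libraries did not overlap for 28.7% in each direction. Bc1 was at 1236 and 840 TPM in total and 87 and 66 TPM in long-tail RNA of knockdown neurons, a difference of -3.58 ± 0.422 (SE). Cdr1 was at 179 and 210 against 104 and 30 TPM, and Ndufc1 at 308 and 256 against 333 and 494 TPM. Rmrp (344 and 625 against 393 and 98 TPM) and Snord22 (19 and 10 against 10 and 2 TPM) overlapped between the knockdown fractions after centring. So did Gm20594, at 1969 and 11985 against 2310 and 1000 TPM. The differences of Rmrp, Snord22 and Gm20594 lay below 0, at -1.08, -1.21 and -1.52. Spearman's correlation with transcript length was -0.817. The ribosomal, mitochondrial and receptor lists had medians on the same side as in scrambled neurons, with 0.36 for cytosolic ribosomal proteins, 0.50 for the respiratory chain, -0.64 for glutamate receptors and -0.59 for GABA receptors. The replication-dependent histones had a median of 0.03 with 7 of 11 above 0, where 49% of all genes were.

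The median size of the difference was 0.28 in knockdown against 0.194 in scrambled neurons, and the test of the difference between them, the interaction in limma over all 8 libraries, called 0 genes with a smallest adjusted p of 1 and 0 genes at an unadjusted p under 0.05, where 347 are expected by chance. The knockdown long-tail libraries did not behave alike. Library 1 was nearly flat with length, at 0.0284 in the shortest bin and 0.0917 in the longest, and library 2 was steep, at 0.443 and -0.809. Rn45s took 18.6% and 2.9% of their TPM. Without knockdown long-tail library 1, the interaction still called 0 genes, but 1000 had an unadjusted p under 0.05 and the smallest adjusted p was 0.201. No gene was therefore shown to differ between fractions in scrambled neurons alone.

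**Figure D5:**
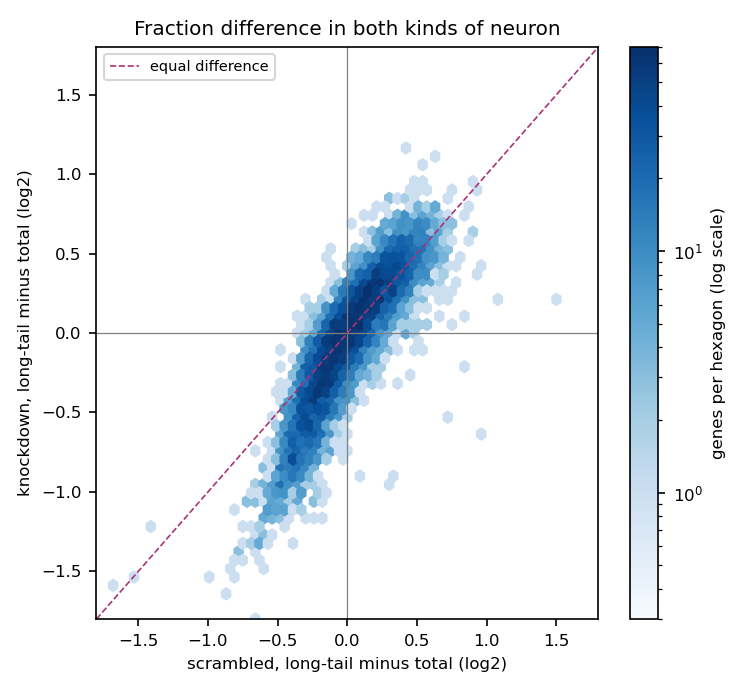
Long-tail minus total difference (log2) of the tested genes in scrambled neurons (horizontal axis) and in knockdown neurons (vertical axis), with darker hexagons for more genes and a dashed line where both are equal. The cloud runs from lower left to upper right (r = 0.869), steeper than the dashed line below 0, and 2 genes lie beyond the axes, Bc1 at -3.24 and -3.58 and Ipw at -0.69 and -1.81.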

How the data were processed

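Per the labels' protocols, RNA was extracted with Trizol, bound to poly(U) agarose and made into libraries with the Nextflex qRNA-Seq Kit v2. Per the submitters' processing notes, the tools were TopHat2, RSEM, CASAVA, DESeq2 and DESeq with the mm10 build; versions, roles, the strand setting and any use of molecular indexes are not given. The deposited gene table holds TPM, a score of relative abundance that the authors rounded to whole numbers, and the rounding coarsens low values. The scaled sums are nearly equal between libraries, so the depth is unknown and no counting interval was made. The authors' deposited lists of genes that differ with knockdown were not used.

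Values were taken as log2(TPM + 1) for genes whose mean over the 4 scrambled libraries was 20 TPM or more. Each library's median deviation from the gene means was subtracted. A model with 2 group means was fitted with limma 3.58.1 in R 4.3.3 (lmFit and trended eBayes), two-sided, with 2 residual degrees of freedom, and a call needed an adjusted p (Benjamini-Hochberg over the 6934 genes) under 0.05. No exact permutation test was run per gene, since 2 libraries against 2 allow no p under 0.333. The interaction and the knockdown difference came from a fit with 4 group means to all 8 libraries. The fit was tested on simulated data.

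Named genes are the 10 with the smallest p per direction, since no gene was called, up to 4 members of each list with the smallest p, and Cnot7 and Rn45s. A few others are named as chosen after their values were seen. Malat1, and Ipw in a figure caption, are also named outside this rule. Some genes that the rule takes are left out of the text. In the table, 27 entries stand as dates and match no gene, of which 17 were tested. Genes were matched to GENCODE M21 by symbol (22698) or by a RefSeq synonym (806), and 1 principal transcript of each gave length, coding length and 3′ UTR. The length trend was a lowess curve with a span of 0.3. The members, lists and tests were chosen with earlier results of these data known. The alternatives were other filters, pseudocounts and scalings, all 8 libraries in the fit, other eBayes options, the replicate number as a block, each library left out, and the length trend removed.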

Additional observations from a re-analysis of the deposited data

How the results depend on the processing

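With other filters on low values, pseudocounts, scalings, eBayes options, all 8 libraries in the fit or the length trend removed, 0 genes were called in either direction. Leaving out 1 scrambled library gave 14 to 94 genes called higher and 12 to 16 called lower. With the replicate number as a block, 1566 genes were called higher and 1279 lower. The labels give no shared culture or batch behind a number, so the pairing is not established: the deviations of same-numbered scrambled libraries from their group means correlated at r = 0.76, while over all pairs of groups r ran from -0.12 to 0.76. The interaction called 0 genes under every alternative run, the block included (50 at an unadjusted p under 0.05).

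Of the log2 differences of named genes under these alternatives, 2024 kept direction and side of the threshold, 145 became called, 115 of them with the block, and 36 turned sign, all of genes with no call; the cause was not tested. Without centring, the turned values were -0.123 for Rpph1, -0.0963 for Cnot8, -0.0996 for Acta2 and -0.0424 for Pcna. With Rn45s removed they were -0.041 for Rpph1, -0.0153 for Cnot8 and -0.0176 for Acta2. With quantile normalization Rn45s was at 0, Rpph1 at -0.118, Olig1 at -0.0238 and Rrm2 at 0.00649. With the length trend removed they were -0.0197 for Rps21, -0.00595 for Psmb3, -0.0212 for Psmb5, -0.0042 for H2afz, -0.487 for Rpph1, 0.0125 for Grm5, -0.00703 for Cnot8, -0.0487 for Srsf9, -0.00397 for Tagln, -0.0225 for Acta2, 0.0259 for Slco1a4, -0.08 for Pcna and 0.123 for Top2a. With 1 library left out, values ran from -0.15 to 0.3 for Rpph1, -0.049 to 0.491 for Olig1, -0.191 to 0.615 for Tagln, -0.221 to 0.418 for Acta2, -0.56 to 0.382 for Slco1a4, -0.397 to 0.198 for Top2a and -0.229 to 0.161 for Rrm2.

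Values are shares in 2 libraries a fraction and of unknown depth. Transcript length comes from the annotation. Values of Rn45s differ between libraries and lie within the sum that TPM is scaled to.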
